A study of Homo sapiens with 27 samples.

Results

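The melanosome and pigment genes are 10 genes whose products build the pigment organelle or make melanin in it, namely *TYR*, *TYRP1*, *DCT*, *PMEL*, *MLANA*, *GPR143*, *OCA2*, *SLC45A2*, *SLC24A5* and *RAB38*. They were chosen by symbol from the 61533 genes of the count table, of which 43846 had at least 1 count, and all 10 passed the filter on low counts in every comparison. The cells were 92.1, an established *GNAQ* mutant uveal melanoma line grown in RPMI with serum. They were kept in DMSO or in 100 nM of VS-4718, an inhibitor of focal adhesion kinase (FAK), called FAKi from here on, and both media were renewed every 72 h. Of the 27 mRNA libraries, 3 came from DMSO cultures at day 0 and 3 from each treatment at days 3, 7, 14 and 21, which makes 9 groups. FAKi therefore always had a DMSO group of the same day beside it, and all groups share the same line and mutation. It is a single cell line, and the study describes both triplicate plating and repeats of the complete experiment without saying which the replicate number of a library counts, so the p-values measure the spread among these libraries, which may be partly technical. In bulk RNA, fewer cells that express a gene and less RNA per cell cannot be told apart.

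Melanin is made in melanosomes, organelles related to lysosomes, in pigment cells such as the melanocytes of the uvea. PMEL forms the fibrils on which pigment is laid down, and MLANA is a small membrane protein that helps PMEL mature. TYR catalyses the first and rate-limiting step from tyrosine, and TYRP1 and DCT act on later intermediates of eumelanin synthesis. OCA2, SLC45A2 and SLC24A5 are transport proteins that set the ions and the acidity of the organelle, GPR143 is a receptor on its membrane that affects melanosome size, and RAB38 is a small GTPase that helps carry TYR and TYRP1 to it. The transcription factor MITF drives many of these genes in melanocytes. FAK itself is the product of *PTK2*, a kinase that signals from contacts of the cell with its surroundings. The question behind the comparisons is how the expression of these cells follows FAK inhibition over time.

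The sequence that MITF is known to bind in pigment gene promoters, TCATGTG (reverse complement CACATGA), was looked for on both strands of the RefSeq promoter windows (GRCh38.p14), which hold 250 bases before and 50 bases from each start. Of the 10 genes, 7 were in that table with a window at the start of the counted transcript. TCATGTG was present in 5 of these 7 windows, *TYR*, *TYRP1*, *DCT*, *GPR143* and *SLC24A5*, against 2.92% of all 35116 windows. The shorter CATGTG (reverse complement CACATG), which lies within the first motif, was in 6 of the 7 with *OCA2* added, against 11.1% of all windows. CACGTG, the palindromic form of the same box, was in 0 of the 7 and in 7.26% of all windows, and the *MLANA* window held none of the 3 motifs. These counts describe letters in the windows and show no binding.

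The 250 bases before the start are printed for 4 genes that the results below set against each other, *TYR* and *OCA2*, which were higher in FAKi on every day, *DCT*, which was higher on some days, and *TYRP1*, for which no FAKi effect passed the test with all libraries. They run 5′ to 3′ on the strand of the gene, with CATGTG or CACATG in capitals. They lie at chr11:89177625-89177874 on the plus strand for *TYR*, chr9:12693135-12693384 on the plus strand for *TYRP1*, chr13:94479683-94479932 on the minus strand for *DCT* and chr15:28099316-28099565 on the minus strand for *OCA2*.
TYR: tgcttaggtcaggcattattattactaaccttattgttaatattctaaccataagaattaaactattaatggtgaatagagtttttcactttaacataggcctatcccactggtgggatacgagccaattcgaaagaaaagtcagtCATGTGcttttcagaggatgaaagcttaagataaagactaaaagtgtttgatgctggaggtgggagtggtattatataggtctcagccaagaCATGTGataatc
TYRP1: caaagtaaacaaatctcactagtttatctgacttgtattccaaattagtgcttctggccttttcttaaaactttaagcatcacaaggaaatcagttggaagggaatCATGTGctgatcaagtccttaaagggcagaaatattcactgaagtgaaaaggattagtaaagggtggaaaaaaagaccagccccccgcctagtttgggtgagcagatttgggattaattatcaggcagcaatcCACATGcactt
DCT: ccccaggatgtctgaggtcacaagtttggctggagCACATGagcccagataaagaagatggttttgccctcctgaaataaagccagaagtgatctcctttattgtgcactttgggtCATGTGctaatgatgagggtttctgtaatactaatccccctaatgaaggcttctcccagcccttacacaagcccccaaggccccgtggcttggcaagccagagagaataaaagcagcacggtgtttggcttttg
OCA2: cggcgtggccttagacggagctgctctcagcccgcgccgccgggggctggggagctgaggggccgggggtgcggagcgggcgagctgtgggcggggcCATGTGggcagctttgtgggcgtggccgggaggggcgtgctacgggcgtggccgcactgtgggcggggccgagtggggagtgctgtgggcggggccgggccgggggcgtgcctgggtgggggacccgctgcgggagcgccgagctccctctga

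TCATGTG began 105 bases before the start in *TYR*, 145 before it in *TYRP1*, and 215 and 135 before it in *DCT*, where the first of both lies on the other strand. *GPR143* had it on the other strand 61 and 33 bases before the start, and *SLC24A5* 15 bases before it. The CATGTG of *OCA2* began 153 bases before the start, preceded by a base other than T.

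For each gene the deposited counts cover 1 transcript in hg38. Its exons lie on chromosome 11 from 89177875 to 89295759 for *TYR* (5 exons, plus strand) and from 88113251 to 88175443 for *RAB38* (3, minus), and on chromosome 9 from 12693385 to 12710285 for *TYRP1* (8, plus) and from 5890889 to 5910606 for *MLANA* (5, plus). *DCT* is on chromosome 13 from 94436811 to 94479682 (8 exons, minus), *PMEL* on chromosome 12 from 55954105 to 55966022 (11, minus), *SLC45A2* on chromosome 5 from 33945866 to 33984641 (6, minus) and *GPR143* on chromosome X from 9725346 to 9765847 (9, minus). *OCA2* has 24 exons on the minus strand of chromosome 15 from 27754875 to 28099315. *SLC24A5* has 9 exons on the plus strand of the same chromosome, from 48120990 to 48142672, and 71.05% of its exon bases are also exon bases of *MYEF2* on the opposite strand, so its counts are uncertain, as described with its values. For *TYRP1* 3.52% of exon bases overlap *LURAP1L-AS1* on the opposite strand, and no exon base of the other 8 genes overlaps another gene.

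Total counts per library were between 12161994 and 43651551, with a median of 24759579, and mitochondrial genes took between 5.49% and 26.97% of them. The 10 genes took between 0.840% and 1.77% of all counts. Some libraries stood nearer to another group than to their own replicates. The distance between libraries, the root mean square of the log2 CPM differences over genes, was 0.116 between FAKi day 7 replicate 1 and FAKi day 14 replicate 1, less than in any of the 27 pairs of replicates (0.145 to 0.702). Their counts still differed by more than sampling noise (chi-square per degree of freedom 1.64, against at least 3.04 between replicates), and both were kept. This check cannot show whether they came from separate cultures, since libraries made from the same RNA can also differ beyond sampling noise. DMSO day 3 replicate 1 was nearest to DMSO day 0 replicate 3, DMSO day 3 replicates 2 and 3 were nearest to DMSO day 21 replicate 3, which was itself nearest to DMSO day 3 replicate 3, and FAKi day 7 replicate 2 was nearest to DMSO day 7 replicate 3. The column of DMSO day 21 replicate 3 also names its day with another digit, while its sample title has day 21. Whether libraries were exchanged was not tested, and if they were, some values given here would stand for other groups than their labels say. All libraries were used as labelled, and values without DMSO day 3 replicate 1, FAKi day 7 replicate 1 and DMSO day 21 replicate 3 are given beside the results that they touch. These 3 are a choice among the libraries nearest to another group, and the rest of those stayed in the fits without them. The melanocyte markers *MITF*, *SOX10*, *PAX3* and *S100A1* were at 1 CPM or more in every library, while *S100B* was between 0.294 and 2.10 CPM. The 5 markers together summed to between 845 and 1609 CPM in DMSO and between 707 and 1413 CPM in FAKi. Of 7 markers of the retinal pigment epithelium, *BEST1* (917 to 2616 CPM) and *RLBP1* (3.34 to 14.3 CPM) were expressed in every library and *LRAT* was between 0.889 and 2.64 CPM, whereas *RPE65*, *RGR* and *TTR* were at most 0.392 CPM and *OTX2* had no count. These 7 summed to between 1109 and 2628 CPM in DMSO and between 925 and 1560 CPM in FAKi. Fibroblast markers summed to at most 17.0 CPM, with *COL1A2* and *DCN* at or near 0, and leukocyte markers to at most 0.298 CPM. *PTK2*, the target of the inhibitor, was between 101 and 165 CPM, and its FAKi effect did not exceed 0.13 on the log2 scale on any day.

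Levels between genes were compared as CPM (counts relative to a library size scaled with TMM over all 27 libraries) per kilobase of counted exon. *PMEL* had the highest median, 2143 CPM per kb, followed by *TYRP1* at 1895, which placed them at ranks 30 and 34 among all genes. *PMEL* was above *TYRP1* in 14 of 27 libraries, so the order of these genes depends on the library. Next came *RAB38* at 384 CPM per kb, *MLANA* at 237 and *TYR* at 148, then *GPR143* at 77.6, *SLC24A5* at 61.1, *SLC45A2* at 28.5 and *OCA2* at 26.1. *RAB38* was above *MLANA* and *SLC24A5* above *SLC45A2* in all 27 libraries. *MLANA* was above *TYR*, and *TYR* above *GPR143*, in 23 of 27, *GPR143* above *SLC24A5* in 17 and *SLC45A2* above *OCA2* in 18. *DCT* was far under the others, with a median of 2.03 CPM per kb and rank 12959, and it was below *OCA2* in every library. It was also the most variable, with an 11.4-fold range of CPM between its lowest and highest library, against 1.84-fold for *MLANA* and 1.89-fold for *RAB38*. The lowest *DCT* count was 47 reads, so its values carry more counting error than those of the other genes, whose lowest count was 581.

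**Figure D1:**
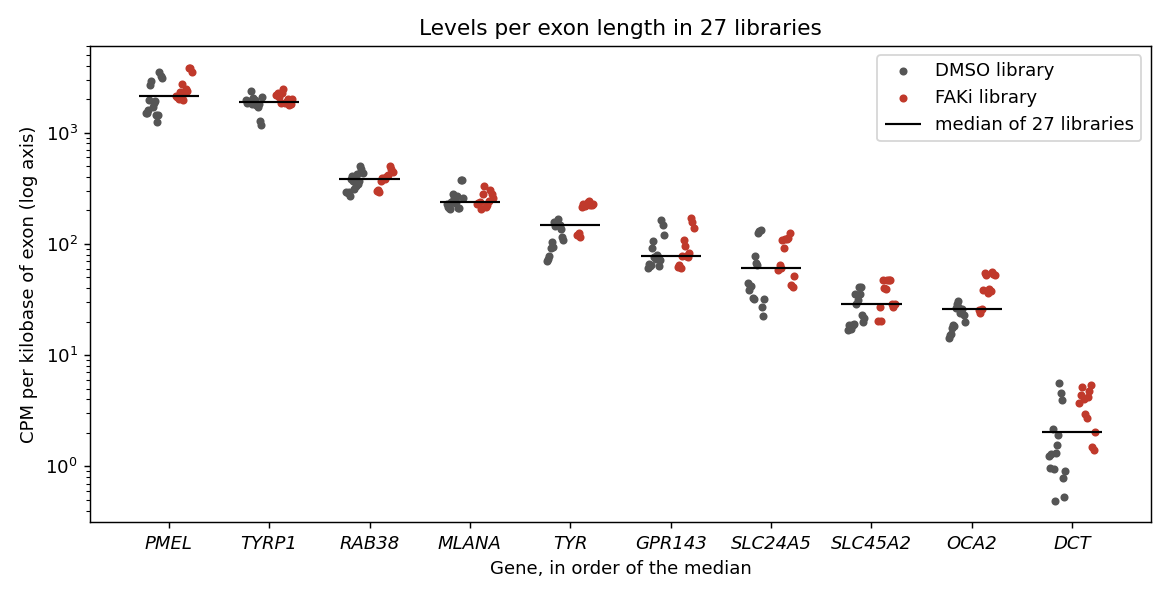
Level of each gene in CPM per kilobase of counted exon, on a log axis, with a point for every one of the 27 libraries, coloured by treatment. *PMEL* and *TYRP1* overlap at the top, with medians of 2143 and 1895, and *DCT* lies far below at 2.03.

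For each day, FAKi was compared with DMSO in the 6 libraries of that day with edgeR's quasi-likelihood test and Benjamini-Hochberg adjustment over all genes tested. Calls needed both an adjusted p no higher than 0.05 and a log2 fold change beyond 1 in either direction, and genes that met the first threshold were also counted by themselves (adjusted p alone). The plot of CPM by day holds the values of every library. Values in the text are CPM scaled over all 27 libraries, given for replicates 1, 2 and 3 in this order, and fold changes come from the fit of the comparison.

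**Figure D2:**
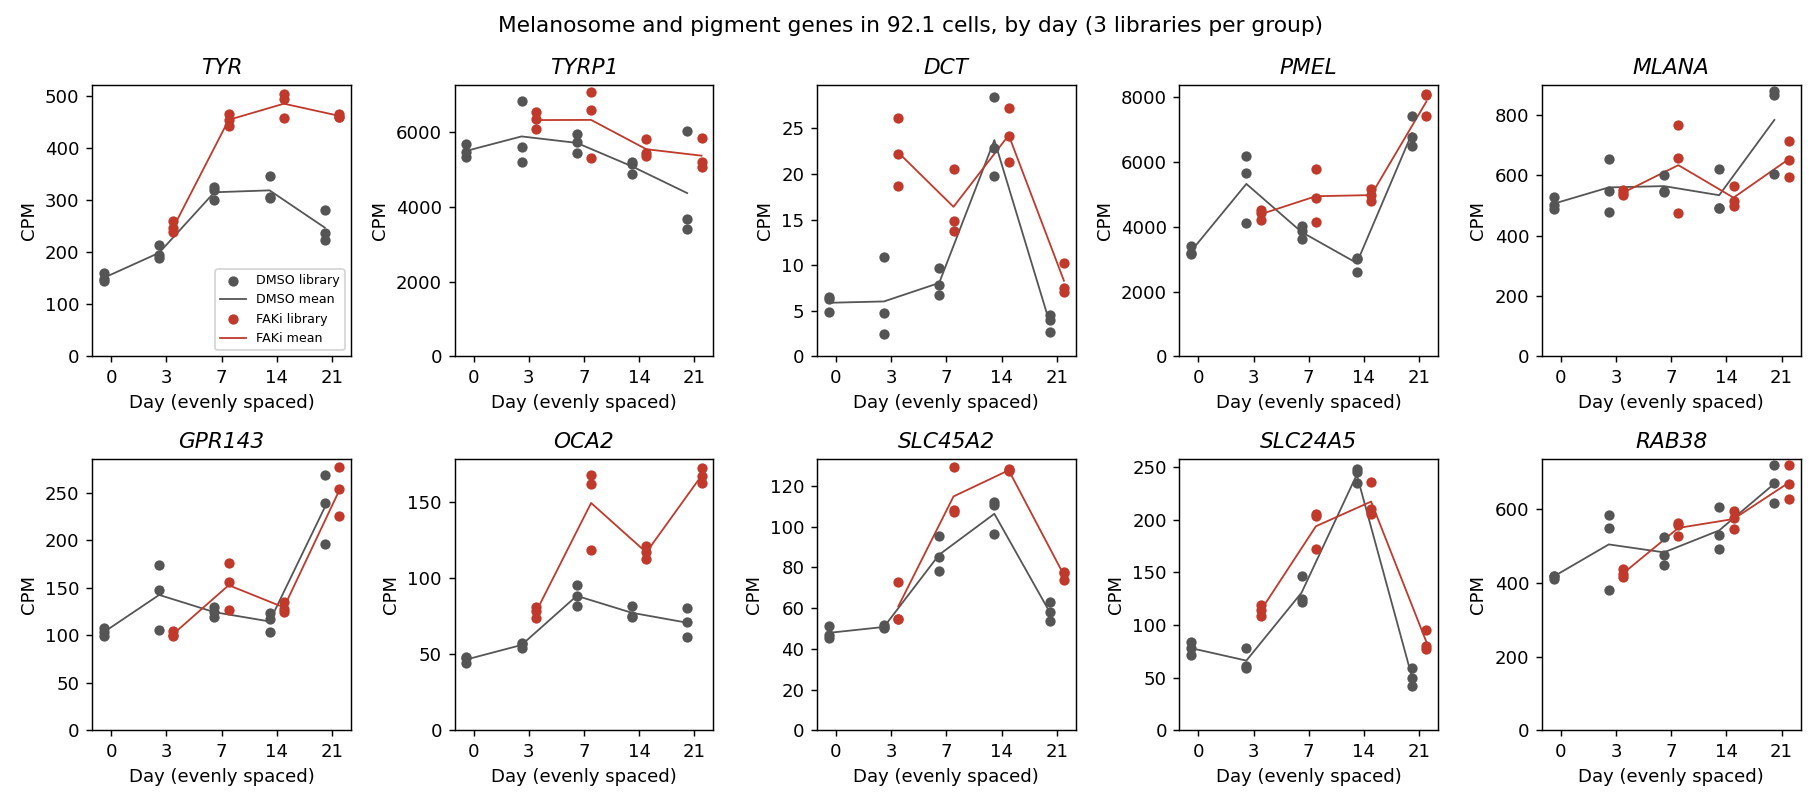
CPM of the 10 genes, each panel with its own axis, against day (evenly spaced), for DMSO and FAKi. Points are libraries, 3 per group, and lines join group means. *TYR*, *OCA2* and *SLC45A2* lie higher in every FAKi library than in every DMSO library of the same day, from day 3 to day 21.

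*TYR*, the tyrosinase that starts melanin synthesis, was higher in all 3 FAKi libraries than in all 3 DMSO libraries on every day. Day 3 gave 188, 215 and 194 CPM in DMSO and 246, 259 and 238 CPM in FAKi, and day 7 gave 325, 300.4 and 319 CPM against 442, 466 and 452 CPM. At day 14 *TYR* was 346, 304 and 305 CPM in DMSO and 458, 493 and 502 CPM in FAKi. At day 21 it was 280.1, 237 and 224 CPM in DMSO, while the FAKi libraries stayed at 459, 459 and 465 CPM. The groups did not overlap on any day, and the distance between them was widest at day 21. For *TYR* the log2 fold change (± SE, 3 libraries per group) was 0.33 ± 0.14, 0.52 ± 0.12, 0.60 ± 0.10 and 0.95 ± 0.13 on days 3, 7, 14 and 21. By edgeR with Benjamini-Hochberg adjustment, *TYR* passed at day 14 (adjusted p = 0.000211) and day 21 (adjusted p = 0.00723), both below the fold threshold, but not at day 3 (adjusted p = 0.200) or day 7 (adjusted p = 0.268).

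*TYRP1*, which stabilises TYR and acts in eumelanin synthesis, showed no FAKi effect that passed the test with all libraries. Its DMSO libraries ran from 5186 to 6824 CPM at day 3, and its FAKi libraries from 6072 to 6511 CPM. At day 21 *TYRP1* was 3660.0, 3392 and 6021 CPM in DMSO and 5064, 5178 and 5825 CPM in FAKi. Thus DMSO day 21 replicate 3, a library that stood apart, was above all 3 FAKi libraries, while the other two DMSO libraries were below all of them. The log2 fold change of *TYRP1* at day 21 was 0.34 ± 0.25 (edgeR, Benjamini-Hochberg adjusted p = 0.371), and without this library it was 0.67 (adjusted p = 9.56e-05). In that fit 48.5% of all genes passed the adjusted p alone. With each of the 6 libraries of day 21 left out in turn, the log2 fold change ranged from 0.19 to 0.67. On the other days the log2 fold change of *TYRP1* was between 0.12 and 0.14, with adjusted p-values of at least 0.401.

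*DCT*, the dopachrome tautomerase, had the largest fold change among the 10 genes at days 3 and 7, while its groups overlapped at day 14. At day 3 it was 10.9, 4.75 and 2.49 CPM in DMSO and 18.7, 22.2 and 26.1 CPM in FAKi. At day 7 *DCT* was 6.73, 7.78 and 9.66 CPM in DMSO and 20.6, 14.9 and 13.8 CPM in FAKi. The groups did not overlap on either day, although the DMSO libraries of day 3 were far apart themselves. At day 14 both groups were high and overlapped, with 28.5, 22.9 and 19.8 CPM in DMSO and 21.3, 24.1 and 27.3 CPM in FAKi. At day 21 *DCT* was 3.98, 2.67 and 4.58 CPM in DMSO and 7.53, 7.09 and 10.3 CPM in FAKi, again without overlap. Its log2 fold change was 1.88 ± 0.43, 1.02 ± 0.21, 0.03 ± 0.14 and 1.19 ± 0.25 on days 3, 7, 14 and 21. In edgeR with Benjamini-Hochberg adjustment *DCT* was called at day 21 (adjusted p = 0.0253) but not at day 3 (adjusted p = 0.0945) or day 7 (adjusted p = 0.205). Without DMSO day 3 replicate 1, its library nearest to day 0, the log2 fold change of *DCT* at day 3 was 2.65 (adjusted p = 1.39e-05). In that fit 32.7% of all genes passed the adjusted p alone, and which DMSO library of day 3 is the odd one was not settled. With each library of day 3 left out in turn the log2 fold change ranged from 1.51 to 2.65. With the replicate number as a block it was 2.10 (edgeR, Benjamini-Hochberg adjusted p = 0.102). DESeq2 called *DCT* with all libraries of day 3 (log2 fold change 1.90, adjusted p = 0.000446) and of day 7 (1.02, adjusted p = 0.00622). The call at day 21 was lost when DMSO replicate 1 or 2 or any of the 3 FAKi replicates was left out, with log2 fold changes between 1.01 and 1.29 and adjusted p-values between 0.0751 and 0.126.

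*OCA2*, a melanosomal membrane protein needed for a near neutral organelle, was higher in FAKi on every day. It was 53.9, 57.7 and 56.8 CPM in DMSO and 78.4, 74 and 80.9 CPM in FAKi at day 3. On day 7 the values were 81.7, 88.4 and 95.4 CPM against 119, 168 and 162 CPM. At day 14 *OCA2* was 82, 74.7 and 75.3 CPM in DMSO and 113, 122 and 117 CPM in FAKi. At day 21 it was 80.3, 70.9 and 61.2 CPM in DMSO and 172, 168 and 163 CPM in FAKi. All FAKi libraries were above all DMSO libraries on each day, and the lowest value of FAKi at day 7, 119 CPM, was that of the replicate 1 that resembled day 14. On the log2 scale the effect on *OCA2* was 0.48 ± 0.13, 0.75 ± 0.16, 0.59 ± 0.10 and 1.30 ± 0.13 on days 3, 7, 14 and 21. By edgeR with Benjamini-Hochberg adjustment *OCA2* passed at day 14 (adjusted p = 0.000321) and was called at day 21 (adjusted p = 0.00379), but it did not pass at day 3 (adjusted p = 0.102) or day 7 (adjusted p = 0.203).

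*SLC45A2*, a transporter of the melanosome membrane, was likewise higher in every FAKi library on all days, by less. At day 3 it was 50.1, 50.6 and 51.5 CPM in DMSO and 54.8, 73 and 54.7 CPM in FAKi, and at day 7 it was 95.4, 78.3 and 85 CPM against 129, 108 and 107 CPM. At day 14 *SLC45A2* was 112, 96.3 and 110.4 CPM in DMSO and 127, 128 and 128 CPM in FAKi, and at day 21 it was 62.8, 53.7 and 58 CPM against 77.5, 73.8 and 77.3 CPM. Thus 2 of the 3 FAKi libraries of day 3 lay only just above DMSO, and both treatments were highest at day 14. For *SLC45A2* the log2 fold change was between 0.26 and 0.44, and only that of day 21, 0.44 ± 0.12, passed the test (edgeR, Benjamini-Hochberg adjusted p = 0.0462).

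*SLC24A5*, a potassium-dependent sodium and calcium exchanger of the melanosome, was higher in every FAKi library at days 3, 7 and 21. At day 14 its FAKi mean was slightly lower, a difference that did not pass the test. It was 77.7, 61.1 and 59.5 CPM in DMSO and 108, 119 and 114 CPM in FAKi at day 3. On day 7 the values were 146, 124 and 121 CPM against 203, 172 and 205 CPM. At day 14 *SLC24A5* was 235, 246 and 248 CPM in DMSO and 205, 210.4 and 236 CPM in FAKi. At day 21 it was 49.9, 42.2 and 59.1 CPM in DMSO and 80.04, 76.8 and 94.9 CPM in FAKi. The groups did not overlap on 3 days, and at day 14 they overlapped slightly on this scale, with the highest FAKi library at 236 CPM and the lowest DMSO library at 235 CPM. The effect on *SLC24A5* was 0.79 ± 0.16, 0.56 ± 0.14, -0.17 ± 0.09 and 0.78 ± 0.16 on the log2 scale on days 3, 7, 14 and 21. Only day 21 passed (edgeR, Benjamini-Hochberg adjusted p = 0.0238), and the adjusted p at the other days was between 0.0945 and 0.307.

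These counts may hold reads of *MYEF2*, a gene for a nucleic acid binding protein that runs from 48134632 to 48178295 on the minus strand of chromosome 15. The counted transcripts share 1335 exon bases, 71.05% of those of *SLC24A5* and 13.2% of those of *MYEF2*. Both genes varied together over the 27 libraries (Pearson's r of log2 CPM 0.990), and *SLC24A5* had between 0.581 and 0.927 of the CPM of *MYEF2*. The log2 fold changes of *MYEF2* had the same signs, with 0.70, 0.42, -0.24 and 0.44 on days 3, 7, 14 and 21. The kit keeps the strand, but the strand setting of the counting is not given in the sources used here, so reads of these genes cannot be told apart and each *SLC24A5* value may be partly that of *MYEF2*.

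**Figure D3:**
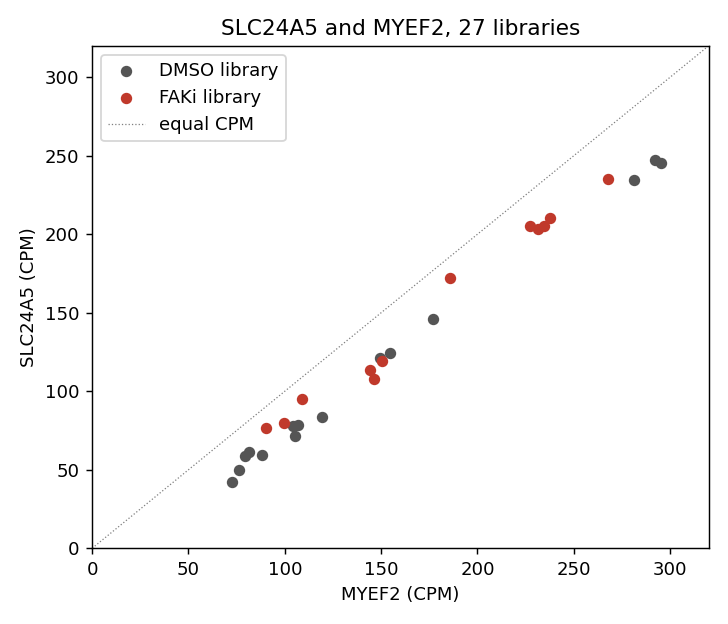
CPM of *SLC24A5* against CPM of *MYEF2*, whose exons overlap on opposite strands, with a point for each of the 27 libraries and a dotted line at equal CPM. The points follow a narrow band below the line, with ratios between 0.581 and 0.927.

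*PMEL*, the fibril protein, was higher in FAKi than in DMSO at day 14 and did not pass the test on the other days. It was 4138, 5666 and 6188 CPM in DMSO and 4514, 4438 and 4229 CPM in FAKi at day 3. On day 7 the values were 3623, 3876 and 4032 CPM against 4895, 5796 and 4158 CPM. At day 14 *PMEL* was 3009, 2613 and 3037 CPM in DMSO and 4817, 5161 and 4974 CPM in FAKi, and at day 21 it was 7416, 6769.6 and 6497 CPM against 8111, 8074 and 7425 CPM. The DMSO libraries of day 3 lay on either side of the FAKi libraries, with replicate 1 the closest of them to the libraries of DMSO at day 0, while at days 7, 14 and 21 all FAKi libraries were above all DMSO libraries. Its effect was -0.27 ± 0.21, 0.36 ± 0.16, 0.78 ± 0.09 and 0.24 ± 0.17 on the log2 scale on days 3, 7, 14 and 21. By edgeR with Benjamini-Hochberg adjustment *PMEL* was higher in FAKi at day 14 (adjusted p = 3.20e-06), and on the other days the adjusted p was between 0.342 and 0.580. From day 7 to day 14 the FAKi mean went from 4950 to 4984 CPM, while the DMSO mean went from 3844 to 2886 CPM.

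For *MLANA*, *GPR143* and *RAB38* no FAKi comparison of a single day passed the test. *MLANA* had log2 fold changes between -0.21 and 0.16, with overlapping groups on all 4 days. *GPR143* was 106, 148 and 174 CPM in DMSO and 101, 105 and 99.2 CPM in FAKi at day 3, so all FAKi libraries were below all DMSO libraries (log2 fold change -0.47 ± 0.19, edgeR Benjamini-Hochberg adjusted p = 0.171). Without DMSO day 3 replicate 1 the log2 fold change of *GPR143* was -0.64 (adjusted p = 0.00345), in a fit where 32.7% of all genes passed the adjusted p alone. With each library of day 3 left out in turn it ranged from -0.64 to -0.31. On the other days the log2 fold change of *GPR143* was between 0.16 and 0.29. *RAB38* was between -0.23 and 0.18 on the log2 scale, and its groups overlapped on all days but day 7.

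**Figure D4:**
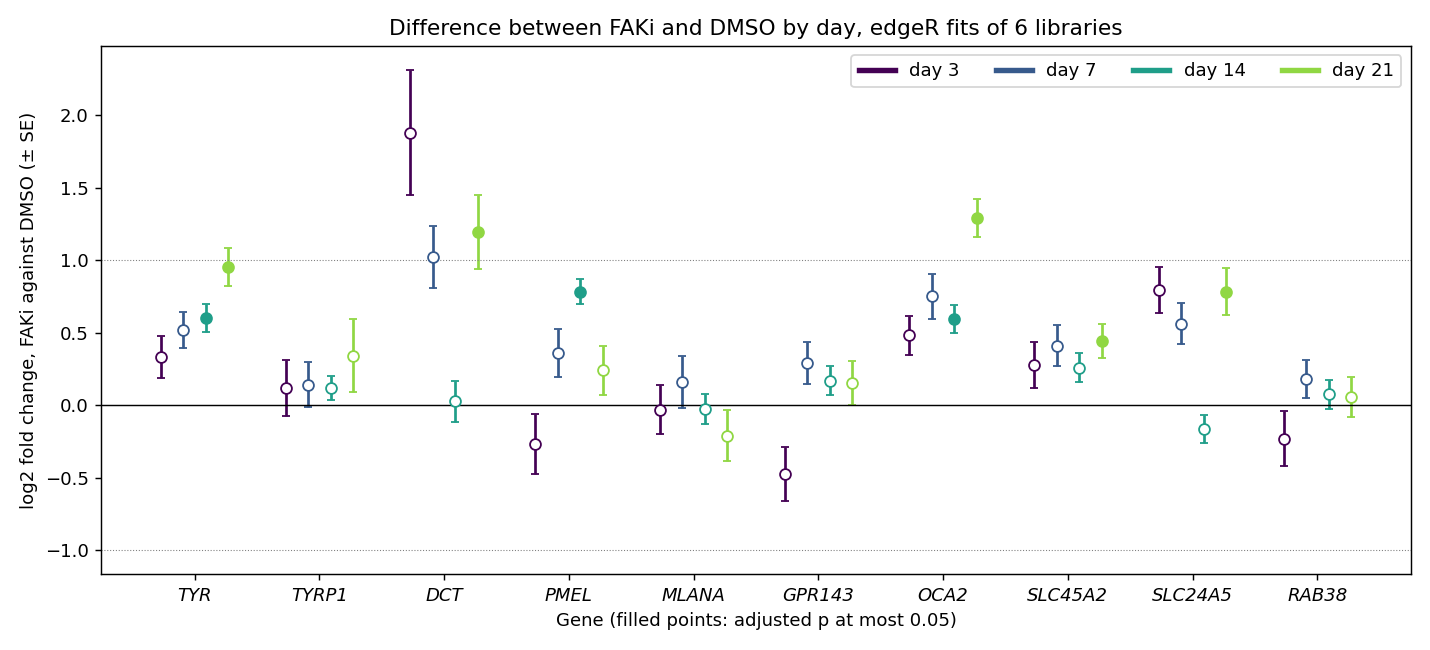
Log2 fold change of FAKi against DMSO for the 10 genes at days 3, 7, 14 and 21, with bars of 1 SE. Filled points have a Benjamini-Hochberg adjusted p of at most 0.05 in edgeR and open points do not. *DCT* ranges from 0.03 at day 14 to 1.88 at day 3, while *MLANA* stays between -0.21 and 0.16.

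Counted by day, the thresholds called 0 of the 10 genes at day 3, where 0.0% of the 22846 genes tested were called, and 0 at day 7, where 0.0269% of 22299 were. At an unadjusted p under 0.05, 5 of the 10 stood at day 3, against 23.8% of all genes, and 5 at day 7, against 8.77%. DESeq2 called 1 of the 10 on each of these days, *DCT*, where it called 3.26% of all genes at day 3 and 0.466% at day 7. At day 14, 0 of the 10 were called (1.66% of all genes), and 3, *TYR*, *PMEL* and *OCA2*, were higher at the adjusted p alone (6.35% of all genes). At day 14, 4 of the 10 had an unadjusted p under 0.05, against 24.6% of all genes, and DESeq2 called 0 (1.68% of all genes). At day 21, 2 of the 10, *DCT* and *OCA2*, were called, both higher (5.28% of all genes were called, 2.58% as higher), and 5, *TYR*, *DCT*, *OCA2*, *SLC45A2* and *SLC24A5*, were higher at the adjusted p alone (5.27%). At the adjusted p alone, 0 of the 10 were lower on any day, against 6.1% of all genes at day 14 and 6.32% at day 21. At day 21 the replicate numbers pair the libraries by the data, and with the replicate number as a block the same counts of 2 and 5 stood against 8.94% and 29.9% of all genes. Without DMSO day 3 replicate 1, 6 of the 10 passed the adjusted p alone, with *DCT*, *OCA2* and *SLC24A5* higher and *PMEL*, *GPR143* and *RAB38* lower, when 32.7% of all genes did. The DMSO libraries kept in that fit, replicates 2 and 3, are those nearest to DMSO day 21 replicate 3, and their mitochondrial share was 9.59% and 8.61%, against 18.1% in replicate 1 and 16.8% to 18.7% in FAKi at day 3, so which DMSO library of day 3 is the odd one was not settled. Without FAKi day 7 replicate 1, 4 passed at day 7, *TYR*, *DCT*, *OCA2* and *SLC24A5*, all higher, against 2.96% of all genes. Without DMSO day 21 replicate 3, 7 passed at day 21, with *TYRP1* added and *MLANA* lower (log2 fold change -0.35, edgeR Benjamini-Hochberg adjusted p = 0.0106), when 48.5% of all genes did. Without DMSO day 21 replicate 1 or 2, or FAKi day 21 replicate 1, 2 passed at the adjusted p alone, and without FAKi day 21 replicate 2 or 3, 1 did. The shares of all genes in these last fits are not given here. A loss among the 10 can therefore not be told from a general loss of calls.

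Groups that did not overlap were counted in the same way. At day 3, 5 of the 10 genes were higher in all FAKi libraries, against 15.8% of all genes, and 1 was lower, against 15.3%. At day 7, 7 of the 10 were higher (7.97% of all genes), at day 14 6 were higher (14.9%) and 1, *SLC24A5*, was lower on the scale of that day (14.1%), and at day 21 6 were higher (18.3%). *TYR*, *OCA2* and *SLC45A2* were higher without overlap on all 4 days, as were 102 of the 21147 genes tested on each day (0.482%). The same pattern in the lower direction held for 0 of the 10 and for 85 genes (0.402%).

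Over all days, the mean of the 4 daily effects was tested in a fit of 24 libraries. Of the 10 genes, 6 were higher in FAKi at the adjusted p alone, against 6.96% of the 27897 genes tested, and 0 were lower, against 8.7%. *DCT* alone passed the fold threshold as well, with a mean log2 fold change of 1.02 ± 0.16 (edgeR, Benjamini-Hochberg adjusted p = 0.000126), where 0.878% of all genes were called higher. *OCA2* had a mean of 0.78 ± 0.06 (adjusted p = 1.09e-08) and *TYR* of 0.60 ± 0.06 (adjusted p = 1.90e-07), the smallest adjusted p-values of the 10. *SLC24A5* followed with 0.49 ± 0.07, *SLC45A2* with 0.34 ± 0.07 and *PMEL* with 0.28 ± 0.08 (adjusted p = 0.0181). The mean effect was 0.17 ± 0.09 for *TYRP1* (adjusted p = 0.203), and for *GPR143*, *RAB38* and *MLANA* it was 0.03, 0.02 and -0.03, with adjusted p-values of at least 0.843. The median over the 10 genes was 0.31, beside 0.01 over all genes. With the 3 libraries that stood apart left out together, 7 of the 10 passed the adjusted p alone, *TYRP1* being added (mean log2 fold change 0.28, adjusted p = 8.59e-05), when 33.0% of all genes did. DMSO day 3 replicates 2 and 3 stayed in this fit, although they too were nearest to another group, and other choices of libraries were not tested together. The mitochondrial share of the counts differed between the treatments too. At day 3 it was between 8.61% and 18.1% in DMSO and between 16.8% and 18.7% in FAKi, and at day 7 between 17.05% and 19.3% against 20.2% and 20.7%. At day 14 it was between 21.95% and 26.97% in DMSO and between 20.7% and 22.1% in FAKi, and at day 21 between 5.49% and 9.75% against 10.7% and 11.2%, so the groups did not overlap at days 7 and 21. Its part in the results was not tested.

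Whether the FAKi effect differed among days 3, 7, 14 and 21 was tested with an F test over the same 24 libraries. The effect differed for 4 of the 10 genes, *DCT*, *PMEL*, *OCA2* and *SLC24A5*, against 10.3% of all genes. *SLC24A5* (edgeR, Benjamini-Hochberg adjusted p = 0.00873) and *DCT* (adjusted p = 0.0409) had their lowest effect at day 14, whereas *PMEL* (adjusted p = 0.0187) had its highest effect then. For *OCA2* (adjusted p = 0.0176) the effect was highest at day 21. *TYR* (adjusted p = 0.0663) and *GPR143* (adjusted p = 0.0656) did not pass in edgeR, although the fold change of *TYR* grew from day to day. In DESeq2 both passed (adjusted p = 0.00374 and 0.0317), which gave 6 of the 10, against 18.7% of all genes. In edgeR the difference was also not shown for *SLC45A2* (adjusted p = 0.831). With the 3 libraries that stood apart left out together, 9 of the 10 passed, all but *SLC45A2*, when 38.4% of all genes did. The result for *DCT* is near the threshold, since leaving out any of 13 single libraries moved its adjusted p to between 0.0515 and 0.103. *PMEL* did not pass without DMSO day 14 replicate 2 (edgeR, Benjamini-Hochberg adjusted p = 0.0515). With each library left out in turn, the adjusted p reached at most 0.0485 for *OCA2* and 0.0337 for *SLC24A5*.

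The levels also moved with time in DMSO alone. Among the 15 DMSO libraries of days 0, 3, 7, 14 and 21, 9 of the 10 genes differed among days, all but *TYRP1*, as did 49.9% of all genes. With each library left out in turn the count was between 7 and 10. The count of 10 came without DMSO day 21 replicate 3, when 56.8% of all genes passed, and the shares for the lowest counts are not given here. *MLANA* did not pass without DMSO day 0 replicate 2 or DMSO day 21 replicate 1 or 2 (edgeR, Benjamini-Hochberg adjusted p between 0.0503 and 0.124), nor did *RAB38* without the first or second of these (0.0523 and 0.0586), while *TYRP1* passed without DMSO day 21 replicate 3 (adjusted p = 0.00194). *SLC24A5* and *DCT* were highest at day 14, with 243 ± 6.84 CPM and 23.7 ± 4.39 CPM (SD, n = 3), and lowest at day 21, with 50.4 ± 8.45 CPM and 3.74 ± 0.978 CPM. *SLC45A2* was also highest at day 14, with 106 ± 8.70 CPM against 47.8 ± 2.85 CPM at day 0. *PMEL* and *GPR143* were highest at day 21, with 6894 ± 472 CPM and 235 ± 36.1 CPM, and *PMEL* was lowest at day 14, with 2886 ± 237 CPM. Thus *PMEL* was lowest in DMSO on the day when *SLC24A5*, *DCT* and *SLC45A2* were highest. *TYR* rose from 151 ± 7.64 CPM at day 0 to 315 ± 12.7 CPM at day 7 and was 318 ± 24.2 CPM at day 14 and 247 ± 29.4 CPM at day 21. The mitochondrial share of the counts in DMSO was between 16.98% and 18.8% at day 0 and between 5.49% and 9.75% at day 21. Of the 7 markers of the retinal pigment epithelium, 3 passed the count filter. *RLBP1* was called higher at day 21 than at day 0 (log2 fold change 1.03, edgeR Benjamini-Hochberg adjusted p = 0.0131), where 23.3% of all genes were called in either direction. *BEST1* was higher at the adjusted p alone (0.86, adjusted p = 0.0283), as were 24.1% of all genes. The part of these in the change over time was not tested.

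Between DMSO at day 21 and day 0, 2 of the 10 genes were called, *PMEL* and *GPR143*, both higher, against 23.3% of all genes called in either direction. The log2 fold change was 1.08 ± 0.16 for *PMEL* (edgeR, Benjamini-Hochberg adjusted p = 0.00269) and 1.18 ± 0.14 for *GPR143* (adjusted p = 0.00165). At the adjusted p alone 7 passed (44.9% of all genes), 6 of them higher (24.1%) and 1 lower (20.7%), and 9 had an unadjusted p under 0.05 (53.8%). The groups did not overlap for 7 genes that were higher at day 21 (29.7% of all genes) and 2 that were lower (28.4%). *TYR* (0.71), *RAB38* (0.68), *MLANA* (0.63) and *OCA2* (0.60) were higher besides, and *SLC24A5* was lower, at -0.63 ± 0.15 (adjusted p = 0.0110). *DCT*, at -0.66 ± 0.24, did not pass (adjusted p = 0.0549). Without DMSO day 21 replicate 3, all 10 passed the adjusted p alone, with *TYRP1* at -0.65 and *DCT* at -0.80, when 69.7% of all genes did. Without any other of the 6 libraries 5 or 6 passed, and the shares of all genes in those fits are not given here. FAKi at day 21 was compared with the same DMSO libraries of day 21, which enter both comparisons with opposite sign. For *PMEL*, *GPR143*, *MLANA* and *RAB38* the FAKi effect at day 21 was between -0.21 and 0.24, beside changes of 0.63 to 1.18 between DMSO at day 21 and day 0.

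Across the 27 libraries the genes fell along these lines. *GPR143* varied with *RAB38* (Pearson's r of log2(CPM + 0.5) 0.881) and *PMEL* (0.866), *TYR* with *OCA2* (0.940) and *SLC45A2* (0.855), and *SLC24A5* with *DCT* (0.863) and *SLC45A2* (0.860). The lowest correlations were those of *PMEL* with *SLC24A5* (-0.505) and of *DCT* with *GPR143* (-0.497). The libraries share day and treatment, and scaling, so these values describe the pattern over 9 groups and were not tested. Among 11243 other genes, the mean standardised log2 CPM of the 10 was followed most closely by *TRPM1*, a melanocyte ion channel gene (r = 0.908), then by ENSG00000261195 (0.897), *PKIA* (0.897), *SIAH1* (0.890) and *NARS2* (0.873).

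**Figure D5:**
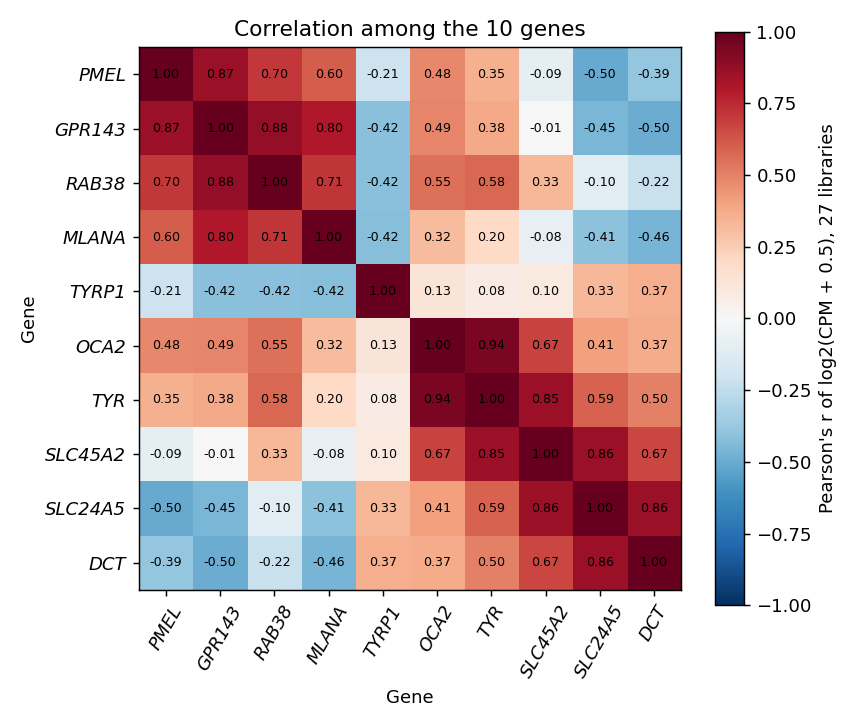
Pearson's r of log2(CPM + 0.5) between each pair of the 10 genes over 27 libraries, from blue (negative) to red (positive). *PMEL*, *GPR143*, *RAB38* and *MLANA* form a block of positive values, as do *OCA2*, *TYR*, *SLC45A2*, *SLC24A5* and *DCT*, with *TYR* and *OCA2* at 0.940. The blocks are not separate, since *RAB38* had 0.575 with *TYR* and 0.552 with *OCA2*, while *OCA2* had 0.410 with *SLC24A5* and 0.372 with *DCT*.

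The other genes of the pathway were described from lists. Of 8 lineage transcription factors, 0 were called for FAKi at days 3, 7 and 14, where 3, 2 and 2 had an unadjusted p under 0.05 (23.8%, 8.77% and 24.6% of all genes), and 1 was called at day 21 (5.28% of all genes), *IRF4*, which acts with MITF on *TYR* (log2 fold change 1.37 ± 0.32, edgeR Benjamini-Hochberg adjusted p = 0.0325). *MITF* itself had means of 178 ± 24.3 CPM in DMSO and 237 ± 6.69 CPM in FAKi on day 3 (SD, n = 3), and of 211 ± 8.54 against 273 ± 47.4 CPM on day 7. Day 14 gave 248 ± 9.95 against 243 ± 8.70 CPM, and day 21 gave 154 ± 25.2 against 128 ± 5.14 CPM. Its log2 fold changes, 0.42, 0.37, -0.04 and -0.22, did not pass on any day (adjusted p of at least 0.153), nor did those of *SOX10*, which were between 0.01 and 0.46. *PAX3* was lower at day 14 (-0.37, adjusted p = 0.0183), as were 6.1% of all genes at the adjusted p alone. Between DMSO at day 21 and day 0, 5 of the 8 were lower at the adjusted p alone (20.7% of all genes) and 1 was higher (24.1%). *MITF* (-0.44), *SOX10* (-0.97) and *PAX3* (-0.66) were among those that fell. *TFAP2A* was called lower (-1.15) and *TFEB*, a regulator of lysosome genes, higher (1.33), where 23.3% of all genes were called in either direction.

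Of 5 genes of melanosome transport, which tie melanosomes to actin motors, 2 were called higher in FAKi at day 21 (2.58% of all genes), *MYO5A* (1.57 ± 0.22, edgeR Benjamini-Hochberg adjusted p = 0.00731), the motor, and *MLPH* (1.13 ± 0.29, adjusted p = 0.0427), its linker. The third component, *RAB27A*, was higher at day 14 at the adjusted p alone (0.43, adjusted p = 0.0152), as were 6.35% of all genes. The mean effect over the 4 days passed as higher for these 3 genes, against 6.96% of all genes, and did not pass for *MREG* and *SYTL2*. Between DMSO at day 21 and day 0, 1 of the 5 was called, *MLPH*, which was higher (1.14), against 23.3% of all genes. *MYO5A* fell in the same comparison at the adjusted p alone (-0.84), which 44.9% of all genes passed in either direction. The median log2 fold change of the 5 genes at day 21 was 0.44, beside 0.01 over all genes. Of 10 other melanosome proteins, *SLC7A11*, a cystine transporter, was called lower at day 14 (-3.54 ± 0.16, adjusted p = 3.86e-12), and at day 21 *ATP7A*, a copper transporter that supplies tyrosinase, was called higher (1.21, adjusted p = 0.0389) and *CAPN3*, a protease, lower (-1.46, adjusted p = 0.00208). Of all genes, 1.66% were called at day 14 and 5.28% at day 21, in either direction. At day 14, 7 of these 10 were higher and 1 lower at the adjusted p alone, against 6.35% and 6.1% of all genes. Between DMSO at day 21 and day 0, 1 of these 10 was called, *ATP7A*, which was lower (-1.42), against 23.3% of all genes.

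Of 20 genes of the complexes that build melanosomes (HPS, BLOC1, AP3 and related), 0 were called for FAKi on any day or in the mean effect. On days 3, 7, 14 and 21, 4, 2, 5 and 6 of them had an unadjusted p under 0.05, against 23.8%, 8.77%, 24.6% and 32.6% of all genes, and by the adjusted p alone 3 were higher and 1 lower at day 14 (6.35% and 6.1% of all genes), and 1 higher and 1 lower at day 21 (5.27% and 6.32%). Between DMSO at day 21 and day 0, 23.3% of all genes were called in either direction. Of the 20 genes, 3 were called higher, *BLOC1S1* (2.04), *RAB32* (1.45) and *SNAPIN* (1.01), and 1 lower, *LYST* (-1.38). Of the 3 receptors upstream, *KIT* was under the count filter, *MC1R* did not pass and *EDNRB*, the endothelin receptor, was higher at day 21 at the adjusted p alone (0.74, edgeR Benjamini-Hochberg adjusted p = 0.0214). The marker *S100A1* moved with FAKi too, called lower at day 14 (-1.02) and day 21 (-1.78), and the fibroblast marker *LUM* was called lower at day 21 (-1.15). In either direction, 1.66% of all genes were called at day 14 and 5.28% at day 21. *BEST1* was lower at day 14 at the adjusted p alone (-0.39), as were 6.1% of all genes. Whether these movements have a part in the values of the 10 genes was not tested.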

How the data were processed

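The data were 27 mRNA libraries of 92.1 cells. Per the file headers and the labels, the authors trimmed reads with Trim Galore, checked them with FastQC 0.11.8, aligned them to hg38 with STAR 2.5.3a and deposited raw counts, made with HOMER on the exons of a single GENCODE 39 transcript per gene. The strand setting and the handling of reads with several matches are not given in the sources used here. Exon overlaps were read from GENCODE 44, which keeps the coordinates of the 10 transcripts.

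Groups followed the labels. The column of DMSO day 21 replicate 3 names its day with another digit, and its sample title has day 21. Genes with under 20 counts in total over the fitted libraries were removed, and edgeR 4.0.16 (R 4.3.3) was run with TMM and Benjamini-Hochberg adjustment. DESeq2 1.42.0, the tool of the study, was an alternative, as were upper quartile or RLE scaling, filterByExpr or no count filter, a fit of all 27 libraries, the replicate block and each library left out. SE were derived from the F statistic. On simulated data, at least 199 of 200 genes with a simulated log2 fold change of 2 were recovered in each comparison. The simulation gave every gene the same spread, held no library that stood apart and changed only genes above a set level of counts. It therefore does not describe the spread among these libraries. In the main edgeR fits with all libraries, no FAKi effect on the melanosome and pigment genes exceeded 1.88 on the log2 scale (*DCT*, day 3). For the same gene and day DESeq2 gave 1.90 and the replicate block 2.10. The recovery therefore does not show how often effects of their size would be found, and genes that did not pass may still differ.

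Named were the 10 genes, *MITF*, *SOX10*, *PAX3*, list genes that were called, and the 5 genes most like the 10. *MYEF2*, *EDNRB*, *RAB27A* and single markers were named after their values were seen. The 10 genes and the lists were chosen with earlier results of these data known. Replicate numbers were checked by correlating deviations from the group means over 12709 genes. At day 21 r was 0.606, 0.265 and 0.786, so the numbers pair the libraries there by the data, not by a label. The lowest r was 0.00937 at day 3, -0.215 at day 7 and -0.0394 at day 14.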

Additional observations from a re-analysis of the deposited data

Results flagged for a closer look

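The effect of FAKi differed among days 3, 7, 14 and 21 for 4 of the 10 genes in a test of the difference itself, an F test by edgeR with Benjamini-Hochberg adjustment over 24 libraries, which 10.3% of all genes passed. For *SLC24A5* (adjusted p = 0.00873) the log2 fold change was 0.79, 0.56, -0.17 and 0.78 at the 4 days, with the overlap with *MYEF2* described above. For *OCA2* (adjusted p = 0.0176) it was 0.48, 0.75, 0.59 and 1.30. For *PMEL* (adjusted p = 0.0187) it was -0.27, 0.36, 0.78 and 0.24. For *DCT* (adjusted p = 0.0409) it was 1.88, 1.02, 0.03 and 1.19.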

How the results depend on the processing

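With 3 libraries per group, a single library can decide a call. The numbers of genes called out of 10 moved as follows. At day 3 the count was 0, and 1 without a count filter, with DESeq2 and with all 27 libraries in a single fit. At day 7 it was 0, and 1 without a count filter and with DESeq2. With the adjusted p alone in place of both thresholds, the count was 3 at day 14, 5 at day 21, 6 in the mean effect and 7 for DMSO at day 21 against day 0. The shares of all genes were 12.4%, 11.6%, 15.7% and 44.9% in the same order. At the adjusted p alone, an alternative test added after seeing the data, DESeq2 gave 3 genes at day 3 (8.06% of all genes) and 3 at day 7 (0.892%), where edgeR gave 0. With the 3 libraries that stood apart left out together, also added after seeing the data, the FAKi effect differed among days for 9 genes in place of 4. The share of all genes was then 38.4% in place of 10.3%.

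Leaving out each library in turn gave between 0 and 1 genes at day 3, 1 and 2 at day 21, 0 and 1 in the mean effect (where *DCT* was at 0.93 to 0.99 on the log2 scale, adjusted p at most 0.000427, when it was not called), and 2 and 6 for the difference among days, where DESeq2 gave 6. For DMSO alone it gave 7 to 10 genes that differed among days, and 5 to 10 at the adjusted p alone for day 21 against day 0. At the adjusted p alone it gave between 0 and 6 genes at day 3, 0 and 4 at day 7, and 1 and 7 at day 21. The 6 came without DMSO day 3 replicate 1 (32.7% of all genes) and the 4 without FAKi day 7 replicate 1 (2.96%). The 7 came without DMSO day 21 replicate 3 (48.5%). Where no share of all genes is given, a count cannot be set against a general change in calls. The smaller fits have fewer samples, and the cause of these shifts was not tested.

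Effects near 0 were reversed in some of these fits. Over each library left out, *MLANA* ranged from -0.12 to 0.089 at day 3, from -0.092 to 0.093 at day 14 and from -0.068 to 0.011 in the mean effect, and *DCT* at day 14 ranged from -0.088 to 0.18. In the mean effect *GPR143* ranged from -0.010 to 0.072 and *RAB38* from -0.023 to 0.044, and without the 3 libraries together they were at -0.0055 and -0.027.

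The fit with the replicate number as a block changed no count of called genes, with 2 at day 21 and 5 there at the adjusted p alone. These stood against 8.94% and 29.9% of all genes in place of 5.28% and 11.6%. For DMSO at day 21 against day 0 the block gave 8 genes at the adjusted p alone (42.9% of all genes), in place of 7 (44.9%). Depth limits *DCT* most, with at least 47 counts.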

Other observations

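The libraries that stood apart over all genes had these levels in single genes of the 10. *OCA2* was 119 CPM in FAKi day 7 replicate 1 and 113 CPM in FAKi day 14 replicate 1, whereas the other FAKi libraries of day 7 had 168 and 162 CPM. *TYR* was 442 CPM in FAKi day 7 replicate 1, nearer to the 452 CPM of replicate 3 of its own group than to the 458 CPM of FAKi day 14 replicate 1. *PMEL* was 4138 CPM in DMSO day 3 replicate 1, and 5666 and 6188 CPM in replicates 2 and 3, beside 3176 to 3397 CPM at day 0. *TYRP1* was 6021 CPM in DMSO day 21 replicate 3 and 3660.0 and 3392 CPM in replicates 1 and 2.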
